A study of Mus musculus with 12 samples.

Results

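The transcripts described here are mouse noncoding regions that the array's designers named by position alone, as a chromosome, a start and an end on the mm9 build with F or R for the strand. They were taken as every probe whose name has that form, and a probe was kept where at least 1 group had it well above background, by the scanner software's own flag, on each of its 3 arrays. The array held 16181 such probes for 3540 regions, 29.1% of its 55681 probes. The rule kept 11153 probes (68.9%) of 3118 regions, against 76.8% of 31237 probes that carry a gene name. The kept probes lay on 20 chromosomes, 5618 on the F and 5535 on the R strand, and merging regions that overlap left 1997 loci. No probe carried a lincRNA prefix. The 378 kept probes of chromosome 18 are counted in every total and none is named.

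The study asked what the loss of the lipase co-activator ABHD5 in macrophages does to the macrophages and to tumour cells primed by them. Total RNA of 12 cell samples was hybridised to 1-colour arrays, 1 array per sample, in 4 groups of 3. RAW264.7, a macrophage-like line from mouse, made up 2 groups: cells with the PLKO vector (control) and cells with an ABHD5 shRNA (knockdown). CT-26, a line from a mouse colon carcinoma, made up the others: cells primed by control RAW264.7 cells and cells primed by knockdown RAW264.7 cells. All samples are of established lines and no gene deletion is named. Neither the way of priming nor a step that parted CT-26 from RAW264.7 cells is given in the sources used here. Nothing says that the 3 samples of a group were separate cultures, so p-values measure the spread between these samples only.

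Long noncoding RNAs are transcribed like messenger RNAs, often spliced and polyadenylated, and are not translated into known proteins. Many are kept in the nucleus, are made at low levels and in few cell types, and are turned over fast by the nuclear RNA exosome. Some act on chromatin or on neighbouring genes, others are hosts of microRNAs or small nucleolar RNAs, and many regions mapped by chromatin marks or by early sequencing have no known role. In macrophages such RNAs are known to be induced beside inflammatory genes, among them one next to Ptgs2, the gene of the inducible cyclooxygenase.

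The probes behind the results below are printed here so that their sequence, place and base composition can be set beside their values. Each is the deposited 60-base probe read 5' to 3', with its mm9 position and the strand in its name. Here and below, within, inside or holding a gene means only that a probe of that gene lies in the region. Gene bounds were not read. Capitals mark the hexamers AATAAA and ATTAAA, the usual polyadenylation signals, searched in the printed strand only. They are members that the results below turn on, among them some whose calls were lost under an alternative. They include 2 pairs of probes, each pair from 1 region, in which 1 probe rose and the other did not.
near Ptgs2, chr1:152007809-152007868, F: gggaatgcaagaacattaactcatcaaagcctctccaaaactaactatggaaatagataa
near Bcl6, chr16:23994835-23994894, F: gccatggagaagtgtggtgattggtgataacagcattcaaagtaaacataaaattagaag
near Insyn1, chr9:58317145-58317204, R: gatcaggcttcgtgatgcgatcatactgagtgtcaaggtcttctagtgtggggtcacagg
chr1:84961943 region, chr1:84961970-84962029, F: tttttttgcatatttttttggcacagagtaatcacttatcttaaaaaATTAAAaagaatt
near Caap1, chr4:94127298-94127357, R: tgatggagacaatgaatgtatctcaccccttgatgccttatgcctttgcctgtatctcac
near Safb2, high in the knockdown, chr17:56692993-56693052, R: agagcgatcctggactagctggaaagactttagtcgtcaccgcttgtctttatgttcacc
near Safb2, one that fell, chr17:56692020-56692079, R: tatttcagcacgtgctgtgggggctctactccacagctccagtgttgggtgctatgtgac
near Ndufs5, high in the knockdown, chr4:123361391-123361450, F: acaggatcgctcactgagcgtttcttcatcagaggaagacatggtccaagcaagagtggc
near Ndufs5, next to it, chr4:123361451-123361510, F: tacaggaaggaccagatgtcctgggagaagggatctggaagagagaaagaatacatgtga
within Snhg18, chr15:32170344-32170403, R: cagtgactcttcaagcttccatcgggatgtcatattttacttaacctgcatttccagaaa
near 2610027F03Rik, chr1:122659945-122660004, F: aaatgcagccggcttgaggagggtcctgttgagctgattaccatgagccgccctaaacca
within Dancr, chr5:74489558-74489617, R: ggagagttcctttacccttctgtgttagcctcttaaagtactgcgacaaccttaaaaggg
near Mir100hg, chr9:41425599-41425658, F: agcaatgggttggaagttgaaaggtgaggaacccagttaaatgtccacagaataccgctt
in the region holding Zfp977, chr7:49836171-49836230, F: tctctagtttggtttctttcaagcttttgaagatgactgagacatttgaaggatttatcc
near Dusp6, chr10:98718686-98718745, R: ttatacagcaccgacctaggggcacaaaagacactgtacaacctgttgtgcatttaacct
near Zfp982, chr4:146889887-146889946, F: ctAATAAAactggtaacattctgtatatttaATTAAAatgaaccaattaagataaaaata
near Osbp, chr19:12085970-12086029, R: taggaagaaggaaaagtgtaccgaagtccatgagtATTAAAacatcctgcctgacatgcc
near Tyro3, chr2:119703894-119703953, F: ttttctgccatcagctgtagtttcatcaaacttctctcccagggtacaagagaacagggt

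Of the probes printed, those near Zfp982, near Osbp and in chr1:84961943-84962737 hold a hexamer. Over all 16181 region probes on the array 6.27% held one, and over the kept probes 6.05% did, against 17.7% of probes of named genes. The kept region probes had a median GC content of 45%, against 41.7% for probes of named genes. A hexamer in a probe is a match of letters and does not mark a transcript end by itself.

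The hairpin's target fell where it was introduced. Abhd5 was lower in knockdown than in control RAW264.7 cells by a log2 change of -1.32 ± 0.20 (SE, n = 3 and 3, adjusted p = 0.00407, limma with Benjamini-Hochberg adjustment), and in CT-26 cells its change was 0.07 ± 0.16 (adjusted p = 0.781). Of 14 macrophage markers, all were well above background in both RAW264.7 groups, and 4 rose in the knockdown, among them Adgre1 by 2.86 and Lyz2 by 1.88, while their summed level went from 8.34 to 8.54 on the control arrays to 8.50 to 8.67. In control-primed CT-26 cells 11 of the 14 were well above background on every array at a summed level of 5.80 to 5.94, against 10 at 5.86 to 6.24 in knockdown-primed cells. Spi1 and Adgre1 were not well above background on any CT-26 array, and Tyrobp and Laptm5 on none of the knockdown-primed arrays. Of 15 colon epithelium markers 8 were well above background on all control-primed and on all knockdown-primed arrays, at summed levels of 5.06 to 5.23 and 4.76 to 5.12, none was called between them, and Vil1, Cdh1 and Cdx1 were above background on no CT-26 array. Epcam, Cldn3 and Muc2 were above background on none of the knockdown-primed arrays. All 7 fibroblast markers were well above background in both CT-26 groups (5.93 to 6 and 6.04 to 6.35), and 2 were called higher in knockdown RAW264.7 cells, Acta2 by 2.32 and Dcn, which was well above background on no control array, with summed levels of -1.98 to -1.44 before and -0.86 to -0.50 after. The part of these marker shifts in the results below was not tested. In bulk RNA, fewer cells of a type and less RNA per cell cannot be told apart.

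Detection of region transcripts differed by line, by group and by slide. On all 3 arrays of a group, 6911 region probes were well above background in control RAW264.7 cells, 9502 in knockdown RAW264.7 cells, 10303 in control-primed CT-26 cells and 8014 in knockdown-primed CT-26 cells. Both lines shared 8705 probes, 840 were kept through RAW264.7 alone and 1608 through CT-26 alone, and 6382 were detected on every array of all 4 groups. The counts moved with the arrays as well as with the groups. The 2 control RAW264.7 arrays on the first slide detected 45.52% and 47.44% of region probes, and the third control array, which shared the second slide with all 3 knockdown arrays, detected 67.23% against 64.11%, 67.18% and 61.68% for the knockdown. All CT-26 arrays lay on the third slide, where control-primed arrays detected 71.33%, 76.60% and 64.58% and knockdown-primed arrays 61.99%, 57.98% and 50.43%. Probes of named genes spanned 62.73% to 78.66%.

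**Figure D1:**
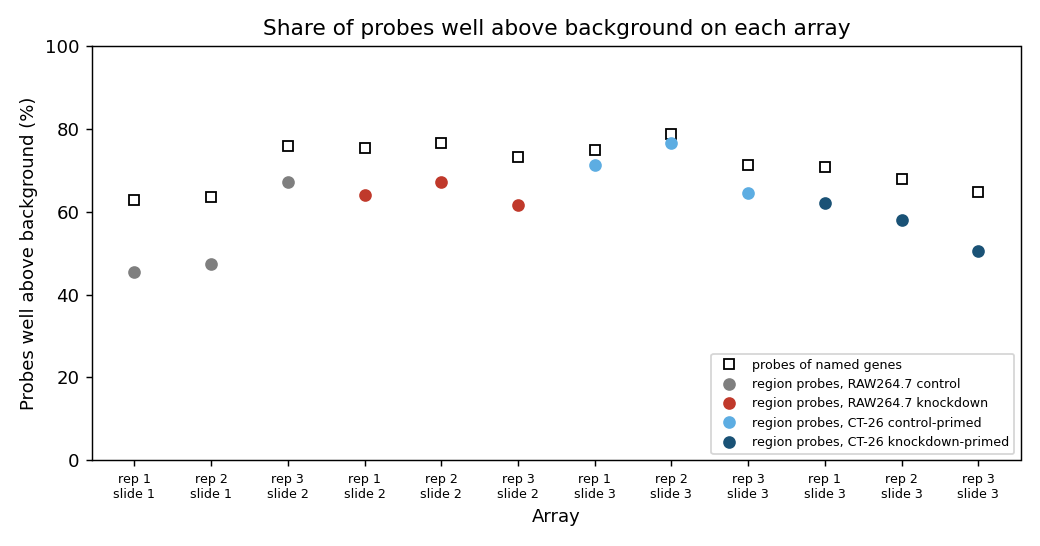
Share of probes well above background on each of the 12 arrays (y axis, percent), with filled circles for region probes coloured by group and open squares for probes of named genes, and the replicate and slide under each array. Region probes range from 45.52% on control RAW264.7 replicate 1 to 76.60% on control-primed CT-26 replicate 2, and named genes lie above them on every array.

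Levels are given as log2 of the processed signal relative to the array's 75th percentile, which is 0. The kept region probes had a median level of -3.69, against -1.07 for kept probes of named genes. At the edge of the rule, the 1718 probes kept through 1 group alone had a median level of -6.09, and the 1041 just outside it, above background on 2 of 3 arrays of their best group, had -6.62. Within a group, arrays correlated over the kept probes at 0.963 to 0.974 in control RAW264.7, 0.983 to 0.989 in the knockdown, 0.985 to 0.990 in control-primed and 0.978 to 0.980 in knockdown-primed CT-26 cells. These are correlations across probes, which are not independent.

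The regions are of very unequal size and many are not far from genes. Their median length was 8510 bp, from 62 to 538251 bp, with 787 under 1 kb. Each region strand had up to 10 kept probes, with a median of 2, and 966 regions had kept probes on both strands. The median distance to the nearest probe of a named gene was 14775.5 bp. Of the 3118 regions 42.7% had such a probe within 10 kb and 88.8% within 100 kb. In 550 regions (17.6%) one lay inside the region itself, and 486 region strands held one on their own strand. Of these 550, 275 held a probe of a gene that RefSeq now lists as a long noncoding RNA, and 252 one of a protein-coding gene, so not every member is intergenic and noncoding by current annotation. Snhg18, Gas5, Dancr and Rcor3 are among the genes with a probe inside a region.

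In RAW264.7 cells with the knockdown, the named region probes near Caap1, near Insyn1 and in the region holding Rcor3 were higher, as were those near Ptgs2, Bcl6 and Socs3. All tested probes of the region holding Snhg18, which lie close together on the R strand, were lower. Of the 8 largest rises, the 3 near Ptgs2, Bcl6 and Socs3 lost their call in the fit blocked on slide and on the second slide alone, and the other 5 kept it under both. Of 9545 region probes tested, 482 (5.05%) rose and 1421 (14.9%) fell (limma, adjusted p under 0.05 over all 37207 probes tested). The background over all probes was 7.89% higher and 13.0% lower, and named genes gave 10% and 12.6%. At 2-fold or more, 339 region probes rose and 539 fell. The median change of the tested region probes was -0.38, against -0.29 over all probes and -0.21 for named genes. Centring arrays on the median took the median of all probes to -0.05 and that of region probes to -0.14, and the called region probes were then 634 higher and 536 lower. The fallers' share of calls was 74.7% here, 45.8% with median centring, 55.6% after quantile normalization, 47.9% with the percentile taken over probes detected on all arrays, 88.6% with normexp background correction and 87.6% with only probes above background on every array. In the fit blocked on slide 147 rose and 61 fell, and on the second slide alone 144 rose and 108 fell. The split of the whole class into higher and lower thus moved with the scaling, and the single regions below are read against the shift of all probes.

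**Figure D2:**
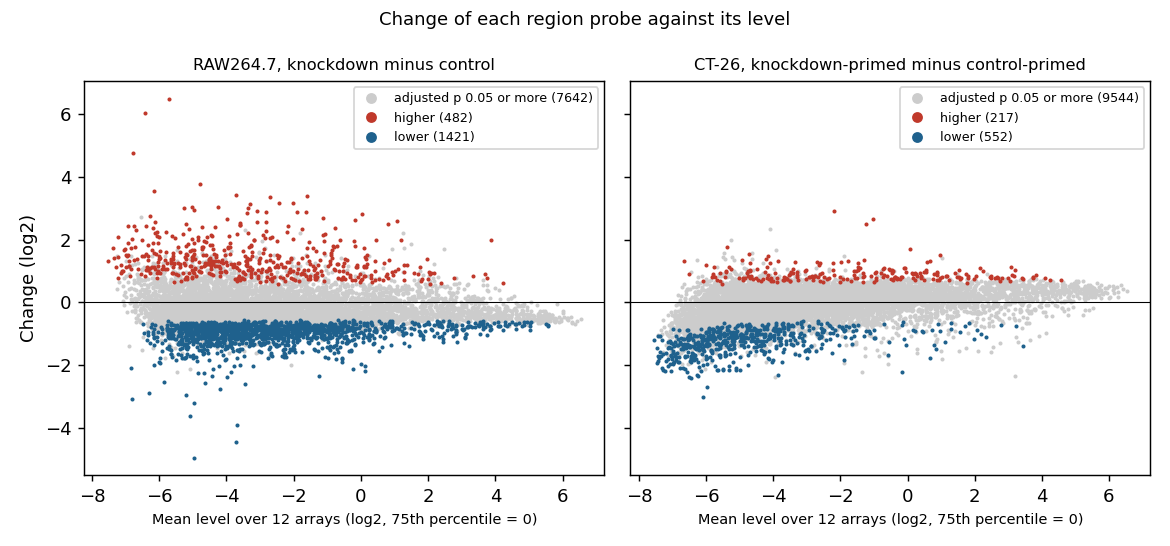
Change of each tested region probe (y axis, log2) against its mean level over the 12 arrays (x axis, log2, 75th percentile at 0) in RAW264.7 cells (left) and CT-26 cells (right), grey where the adjusted p was 0.05 or more. In RAW264.7 cells 482 probes are higher and 1421 lower, and in CT-26 cells 217 are higher and 552 lower, with the lower ones gathered at low levels.

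The share of region probes called higher in RAW264.7 cells lay below that of named-gene probes in each of 4 bins of signal, a difference that was not tested. Probes were put in 4 bins with the quartiles of the region probes' mean level as edges, running from -6.77 to -4.70, to -3.32, to -1.28 and to 6.61. From the dimmest to the brightest bin 8.05%, 3.69%, 4.61% and 3.85% of region probes rose, against 15.3%, 11.9%, 14.2% and 7.10% of named-gene probes. The shares that fell were closer, at 11%, 15.6%, 17% and 15.9% for region probes and 10.4%, 15.0%, 13.9% and 12.1% for named genes. Calls also moved with base composition in both classes. Of region probes with a GC content of 35% or less 10.5% rose and 12.5% fell, and of those over 50% GC 1.64% rose and 17.9% fell. For named genes the shares were 13.3% and 8.74% at 35% or less, and 4.91% and 16.9% over 50%. The part of GC content in the difference between the classes was not tested.

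**Figure D3:**
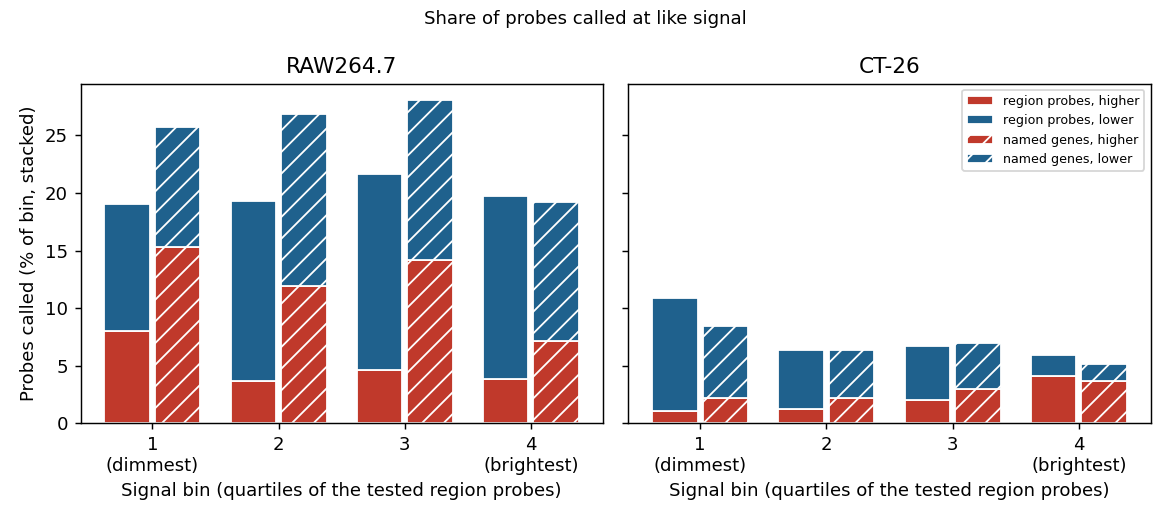
Share of probes called higher (red) and lower (blue) in each of 4 signal bins (x axis, quartiles of the tested region probes), stacked, in percent of the bin (y axis), with plain bars for region probes and hatched bars for named genes. In RAW264.7 cells the red part is smaller for region probes in every bin, from 8.05% against 15.3% in the dimmest to 3.85% against 7.10% in the brightest, and in CT-26 cells no share called lower is above 9.78%.

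The region chr1:152001112-152012796, 46309 bp from a probe of Ptgs2, rose with the gene. Its F probe stood at -4.36, -3.68 and -3.84 on the control arrays and at -2.35, -1.50 and -0.92 on the knockdown arrays. All 3 knockdown arrays lay above all 3 controls, by 2.37 ± 0.36 (adjusted p = 0.00372), a 5.16-fold rise. Ptgs2 itself, the cyclooxygenase that makes prostaglandin precursors, rose by 2.09 ± 0.27 (adjusted p = 0.00161). All 4 tested F probes of the region rose, by 2.02 to 2.89, and 2 of 3 R probes did. In CT-26 cells the same probe was near 1 on control-primed arrays (1.40, 0.50 and 0.87) and at 1.43, 1.46 and 1.68 on knockdown-primed ones, a change of 0.60 (adjusted p = 0.135). Over the alternatives the adjusted p in RAW264.7 cells ran from 0.000286 to 0.0944, and it was above the threshold in the fit blocked on slide (2.25, adjusted p = 0.0541) and on the second slide alone (0.0944).

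The region chr16:23992037-24001037 lies 26818 bp from a probe of Bcl6, a transcriptional repressor of inflammatory genes. Its F probe was at -3.40, -3.56 and -2.91 in the controls and at -1.72, -0.76 and -0.05 in the knockdown, with no overlap. The rise was 2.45 ± 0.39 (adjusted p = 0.00506), and 4 of 6 probes on each strand rose. Bcl6 went the other way, by -0.69 (adjusted p = 0.0335). In CT-26 cells the region's probe fell from -2.07, -1.98 and -1.39 to -2.56, -2.70 and -2.80, a change of -0.87 ± 0.21 (adjusted p = 0.0445). The rise in RAW264.7 cells was 2.06 in the fit blocked on slide, at an adjusted p of 0.0862, within a range over the alternatives of 0.000315 to 0.135 that was highest on the second slide alone.

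Near Socs3, a feedback inhibitor of cytokine signalling, 1 of 3 R probes of chr11:117768049-117807949 rose. It went from -2.63, -2.12 and -1.57 to -1.18, -0.22 and 1.03, by 1.99 ± 0.51 (adjusted p = 0.0314), and Socs3, 19531 bp away, rose by 1.08 (adjusted p = 0.00793). The knockdown arrays spread widely here. The region's adjusted p ran from 0.00423 to 0.327 over the alternatives and was above the threshold in the fit blocked on slide and on the second slide alone (change 1.45 in both), with no filter on dim probes (0.0941), and without knockdown replicate 2 (0.0801), knockdown replicate 3 (0.0781), control replicate 1 (0.0832) or control replicate 2 (0.0763).

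The other rises among the 8 largest kept their call under every alternative tried. The R probe of chr9:58301467-58323783 went from -4.34, -3.19 and -4.06 to -0.93, -1.09 and -1.11, by 2.82 ± 0.29 (adjusted p = 0.000518), and Insyn1, an inhibitory synapse gene 13936 bp away, was at -0.58 (adjusted p = 0.087). Along that region 3 of 8 R probes rose and 2 fell, from -0.78 to 2.87. An F probe of chr1:84961943-84962737, at 20% GC, went from -2.13, -1.97 and -2.39 to 0.09, 0.53 and 0.63, by 2.58 ± 0.22 (adjusted p = 0.00017).

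On the same chromosome chr1:85304494-85305390 rose on all 3 R probes, by 1.99 to 2.69, and the named one went from -0.88, -0.21 and -0.46 to 1.37, 1.51 and 1.53. Near Caap1, a caspase inhibitor, 4 of 5 R probes of chr4:94121118-94148348 rose, with a median of 2.26, and the named one went from -3.98, -4.28 and -4.70 to -1.63, -2.12 and -1.85. Caap1 was at 0.40 (adjusted p = 0.164). Within chr1:193875525-193978800, which holds Rcor3, a co-repressor gene, and Gm10516, 1 of 2 R probes rose, from 2.21, 1.55 and 2.30 to 3.98, 4.08 and 3.92. Rcor3 rose by 0.77 (adjusted p = 0.042).

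In CT-26 cells several of these risers stood higher than in either RAW264.7 group and were level between the primed groups. The chr9:58301467-58323783 probe was at 2.22, 2.53 and 2.47 on control-primed arrays and 2.39, 2.51 and 2.84 on knockdown-primed arrays. The chr1:84961943-84962737 probe was at 3.01, 2.99 and 2.99, then 2.96, 3.17 and 3.18. For the region holding Rcor3 the values were 4.52, 4.86 and 4.39, then 4.70, 4.83 and 4.97. The changes in CT-26 cells, 0.17, 0.11 and 0.24, had adjusted p of 0.543, 0.644 and 0.379. Not all did so, since the probe near Caap1 was at -4.03, -4.39 and -4.05 on control-primed arrays, level with control RAW264.7 cells (difference -0.16, interval -0.71 to 0.39).

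Some probes were above background in the knockdown arrays and on no control array. For these the rise is given as a bound, the mean of the group that was measured over, per array, the higher of the dim probe's own signal and the lowest signal among probes well above background. The bound holds for the scanner software's background correction only. Such probes, here and below, were tested only through the group where they were high. Their fitted changes and adjusted p rest on readings not well above background in the other group and are given as description. The R probe at 56692993 in chr17:56687541-56694631, 7251 bp from Safb2, a nuclear scaffold protein gene, read -6.86, -5.93 and -7.72 in the controls and -0.96, -0.30 and 0.20 in the knockdown. That is at least 32.2-fold higher (fitted change 6.48 ± 0.45, adjusted p = 6.92e-05). On all 6 CT-26 arrays this probe was not well above background. It stood alone in its region, where the other 4 R probes were at -0.63 to -0.35 and the 4 F probes at -0.95 to 0.17, and the R probe at 56692020 fell by 0.63 on the log2 scale (adjusted p = 0.0494). Safb2 was at -0.01 (adjusted p = 0.963).

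A like pattern was seen at 123361391 in chr4:123155515-123361565. It read -6.98, -6.81 and -8.95 in the controls and -2.26, -1.40 and -0.95 in the knockdown, at least 14.1-fold higher (6.04 ± 0.56, adjusted p = 0.000303). The probe that starts on the next base, at 123361451, was at -5.49, -4.67 and -4.91, then -5.33, -5.25 and -5.60, a change of -0.37 (adjusted p = 0.272). Ndufs5, a subunit of respiratory complex I 28409 bp away, was at 0.23 (adjusted p = 0.526). In chr7:13533925-13544525, which holds 1810019N24Rik, the F probe read -7.02, -6.89 and -8.94, then -2.32, -3.05 and -3.25, at least 5.61-fold higher (4.75 ± 0.52, adjusted p = 0.000719), and the only R probe tested was at 2.73 (adjusted p = 0.0861). With normexp correction the fitted log2 changes of these 3 were 4, 3.55 and 2.31, which is under their bounds, and the calls held.

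**Figure D4:**
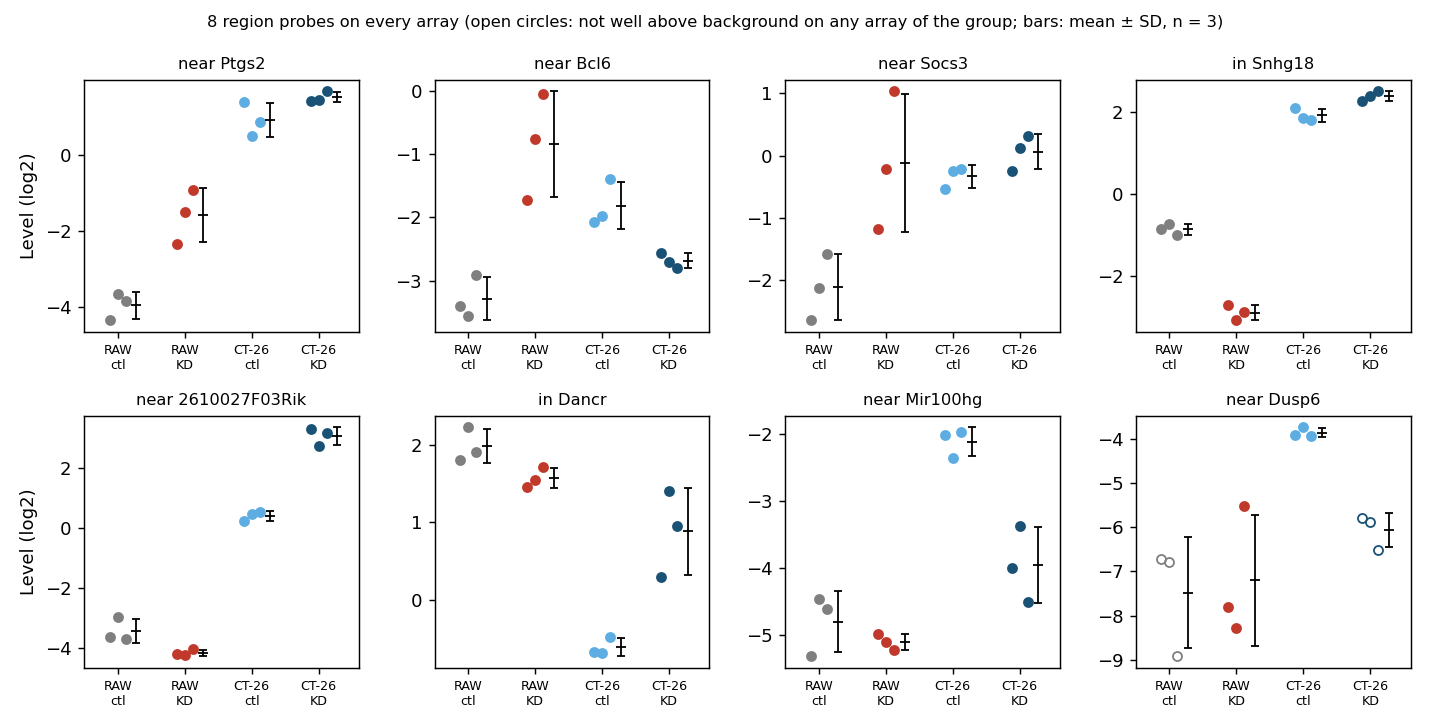
Level of 8 region probes on each array (y axis, log2, 75th percentile at 0) by group (x axis), with bars for the mean ± SD of 3 arrays and open circles where a group was above background on no array. In RAW264.7 cells the knockdown arrays sit above the controls for the probes near Ptgs2, Bcl6 and Socs3 and below them in the region holding Snhg18. In CT-26 cells the probe near 2610027F03Rik rises from 0.22 to 0.54 up to 2.73 to 3.28.

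In the region holding Snhg18, a host gene of small nucleolar RNAs, every tested probe fell, though these probes cover little of it. The R probe of chr15:32167516-32174427 went from -0.84, -0.73 and -1 to -2.70, -3.07 and -2.88, by -2.02 ± 0.19 (adjusted p = 0.000315), with no overlap. All 5 tested probes fell, by -2.20 to -1.37, and the probe named Snhg18 fell by -1.97 ± 0.18 (adjusted p = 0.000282). The 5 are all R probes placed -0.642 to -0.522 kb from the region's centre, and no F probe was tested in RAW264.7 cells. The region probe shares a run of 20 or more bases with a probe named LOC100616095 and with one of a neighbouring region name, so these readings are not independent. In CT-26 cells it stood at 2.08, 1.84 and 1.81, then 2.26, 2.38 and 2.5, a change of 0.47 (adjusted p = 0.101).

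In chr1:162965309-162970704, which holds a probe of Gas5, a growth arrest RNA that also hosts small nucleolar RNAs, 1 of 2 F probes fell. It went from 0.03, -0.01 and -0.07 to -1.93, -1.79 and -1.69, by -1.79 ± 0.17 (adjusted p = 0.000387). None of the 10 R probes was called, at -0.73 to -0.07, and the probe named Gas5 was at -0.18 (adjusted p = 0.512). On chromosome 13 the F probe of chr13:98571741-98603323 fell from -1.37, -1.32 and -2.52 to -4.06, -4.17 and -4.17, by -2.39 ± 0.32 (adjusted p = 0.00195), as 1 of 5 probes on its strand. These 3 falls, in the regions holding Snhg18 and Gas5 and on chromosome 13, kept their call under every alternative tried.

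Other falls depended on how the slides were handled. Near Rbm26, an RNA-binding protein gene 2886 bp away, 5 of 6 R probes of chr14:105497388-105511063 fell, the named one from -0.91, -0.22 and -1.31 to -2.79, -2.47 and -2.60, and Rbm26 fell by -0.95 (adjusted p = 0.0189). In chr10:66349796-66378261 an R probe fell from 1.30, 2.02 and 1.04 to -0.68, -0.17 and -0.71 while 1110002J07Rik, inside the region, rose by 0.83 (adjusted p = 0.017). On the F strand of that region 2 of 5 probes rose, by 0.94 and 2, and 1 fell, by -0.75. In chr4:155585650-155608700, which holds Klhl17, Perm1 and Plekhn1, 3 of 5 F probes fell, the named one from 1.16, 0.23 and 0.64 to -1.56, -0.30 and -1.83.

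The changes of these 3 probes were -1.81 ± 0.28, -1.97 ± 0.29 and -1.91 ± 0.41, at adjusted p of 0.00437, 0.00312 and 0.0164. Near Mycn, the transcription factor gene 23358 bp away, the F probe of chr12:12916233-12919835 fell from -2.11, -4.12 and -3.03 to -5.73, -5.24 and -4.99, by -2.23 ± 0.45 (adjusted p = 0.014), with Mycn at -0.11. In chr8:13507348-13543773 an R probe fell from -1.50, -1.62 and -3.66 to -4.27, -4.16 and -4.38, by -2.01 ± 0.51 (adjusted p = 0.0297). All 5 lost their call in the fit blocked on slide, at adjusted p from 0.0584 to 0.272, and the chromosome 8 change was then -0.61. On the second slide alone the calls on chromosomes 8, 10 and 4 were lost (0.142, 0.0515 and 0.15). The call near Mycn was also lost after quantile normalization (0.056), with no filter on dim probes (0.0598) and without knockdown replicate 1 (0.0535). That in the Perm1 region was lost with no filter (0.0648) and without knockdown replicates 1 (0.0611) or 3 (0.0652) or control replicate 1 (0.057). That on chromosome 8 was lost with median centring (0.052), quantile normalization (0.0551), no filter (0.0913) and without knockdown replicates 1 (0.0829), 2 (0.0763) or 3 (0.0962) or control replicates 1 (0.0797) or 2 (0.0828). Over all alternatives the adjusted p of these 5 ran from 0.00012 to 0.272.

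In 2 other regions a fall ended below background in the knockdown. In chr8:69416817-69417583, 2362 bp from Naf1, an assembly factor of H/ACA RNA particles, an F probe went from -3.82, -4.03 and -5.53 to -6.66, -7.34 and -8.61, at least 4.36-fold lower (adjusted p = 0.00893), and both probes of the region fell. In chr1:138528250-138538250, 3600 bp from the zinc finger gene Zfp281, another went from -4.19, -3.87 and -5.78 to -7.94, -6.94 and -7.81, at least 3.93-fold lower (adjusted p = 0.0057). Control replicate 3, on the slide of the knockdown arrays, was the lowest control for both. Both calls were lost in the fit blocked on slide (0.142 and 0.053) and on that slide alone (0.172 and 0.093), against smallest values of 0.000225 and 0.000324 over the alternatives. With normexp correction the changes were -1.55 and -1.43, smaller than the bounds.

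In CT-26 cells the clearest change was a rise near 2610027F03Rik. Most other calls of the main setting were falls, gathered at low levels, but this split moved with the filter and the background correction. Of 10313 region probes tested 217 (2.10%) rose and 552 (5.35%) fell, beside a background of 2.64% higher and 3.70% lower over 37508 probes, and named genes gave 3.19% and 2.79%. At 2-fold or more, 53 rose and 388 fell. The median change was 0.02, against 0.08 over all probes. In the dimmest of the 4 signal bins 9.78% of region probes fell against 6.25% of named-gene probes, and in the brightest 1.82% against 1.42%. Falls moved with base composition too. Of region probes with a GC content of 35% or less 1.93% rose and 10.6% fell, and of those over 50% GC 1.75% rose and 1.3% fell. For named genes the shares were 2.43% and 4.41% at 35% or less, and 2.41% and 1.56% over 50%. The part of GC content in these calls was not tested. The fallers' share of calls was 71.8%, and it was 85.1% with the percentile over probes detected on all arrays, 42.5% with normexp correction and 51% with only probes above background on every array. That last filter tested 8004 region probes, of which 350 rose and 365 fell. The main rule passed 10303 region probes through the control-primed group and 8014 through the knockdown-primed group. Dim probes that passed through the control-primed group alone are selected toward falls, and the part of this in the counts and bins was not tested. Knockdown-primed arrays also had the lower detection shares. Without control-primed replicate 3 the 769 calls dropped to 9, without control-primed replicate 2 to 105 and without knockdown-primed replicate 3 to 149.

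The region chr1:122655019-122660142, 68043 bp from 2610027F03Rik, held the largest rise. Its F probe read 0.22, 0.46 and 0.54 on control-primed arrays and 3.28, 2.73 and 3.17 on knockdown-primed arrays. The rise was 2.65 ± 0.19 (adjusted p = 0.00116), 6.28-fold, and all 3 probes of the strand rose, by 2.5 to 2.92. It kept its call under all 18 alternatives, with adjusted p from 4.1e-05 to 0.0384. In RAW264.7 cells the same probe was lower and went from -3.64, -2.98 and -3.69 to -4.22, -4.25 and -4.05, a change of -0.74 (adjusted p = 0.0523).

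In the region holding Dancr, a noncoding RNA that holds back differentiation, some probes rose on both strands. The named R probe of chr5:74487385-74497428 went from -0.68, -0.69 and -0.48 to 0.29, 1.41 and 0.95, by 1.5 ± 0.26 (adjusted p = 0.0212). Of 10 R probes 5 rose and of 10 F probes 4 did, while the probe named Dancr was at 0.40 (adjusted p = 0.17). In RAW264.7 cells the named region probe was at 1.81, 2.23 and 1.91, then 1.46, 1.55 and 1.72 (-0.41, adjusted p = 0.14), and 3 R and 5 F probes of the region fell.

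In each of the other 6 of the 8 largest rises 1 probe of the named strand was called, and near Osbp, near Scn3a and inside Kirrel 1 F probe rose as well, by 1.34, 0.74 and 0.68 (adjusted p = 0.0152, 0.0311 and 0.0457). Near Osbp, an oxysterol-binding protein gene, the R probe of chr19:12079745-12088620 went from -0.51, -0.93 and -0.74 to 0.44, 1.10 and 1.35, by 1.69 ± 0.24 (adjusted p = 0.0141). In chr10:60473030-60535340, which holds Gm20611, 1 of 4 R probes went from -6.30, -6.26 and -5.92 to -5.53, -3.57 and -4.11, by 1.76 ± 0.43 (adjusted p = 0.0465). Near Abt1, an activator of basal transcription, the R probe of chr13:23517278-23523756 went from -5.39, -5.34 and -6.04 to -4.43, -4.04 and -3.67, by 1.54 ± 0.26 (adjusted p = 0.0186). The probes near the sodium channel gene Scn3a (chr2:65240793-65292293), inside Kirrel (chr3:86827945-86886695) and in chr5:149947200-149979950 rose by 1.39 ± 0.16, 1.33 ± 0.22 and 1.32 ± 0.20, at adjusted p of 0.00835, 0.0179 and 0.0157.

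Of these 8 rises the one near 2610027F03Rik alone kept its call without control-primed replicate 3, and the other 7 then had adjusted p of 0.0737 to 0.156. Without control-primed replicate 2, 6 were lost (0.0534 to 0.128), without knockdown-primed replicate 3, 4 were lost (0.061 to 0.148), and the rise in chr10:60473030-60535340 was also lost without knockdown-primed replicate 2 (0.0896) or control-primed replicate 1 (0.0901). With no filter on dim probes these 7 had adjusted p of 0.0742 to 0.0891. Without the 2 CT-26 arrays of lowest and highest detection share the same 7 were lost (0.1 to 0.286). In a fit over all 12 arrays the rises in chr10:60473030-60535340 (0.069), near Abt1 (0.0594) and inside Kirrel (0.0947) lost their call, the first also after quantile normalization (0.0619) and with the percentile over detected probes (0.0604).

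Among the falls in CT-26 cells, a region beside Mir100hg moved with its neighbour. In chr9:41422319-41425855, 23922 bp from this host gene of microRNAs, the F probe went from -2.01, -2.36 and -1.97 to -4, -3.37 and -4.51, by -1.84 ± 0.28 (adjusted p = 0.0152). All 3 probes of the strand fell, by -1.84 to -1.67, and Mir100hg fell by -1.10 ± 0.17 (adjusted p = 0.0157). In RAW264.7 cells the probe was at -5.32, -4.47 and -4.61, then -4.98, -5.11 and -5.23 (-0.31, adjusted p = 0.36). The fall in chr7:49829800-49843475, which holds the zinc finger gene Zfp977, was from -2.60, -2.61 and -2.60 to -4.69, -4.99 and -4.48, by -2.12 ± 0.17 (adjusted p = 0.002), as 1 of 2 probes, with Zfp977 at -0.39 (adjusted p = 0.354). It was the only one of the 8 largest falls that kept its call under every alternative tried.

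In chr3:51138643-51146693 an F probe fell from -1.25, 0.72 and -0.29 to -1.93, -3.25 and -2.26, by -2.21 ± 0.49 (adjusted p = 0.0378), and one in chr16:13468953-13474394 from -1.75, -1.68 and -1.19 to -3.26, -3.51 and -3.39, by -1.85 ± 0.19 (adjusted p = 0.00487). Near Cdkn2b, a cyclin-dependent kinase inhibitor gene 79869 bp away, 1 of 5 F probes of chr4:89032648-89133273 fell, from 0.54, 1.14 and 0.85 to -0.52, -1.48 and -0.78, by -1.77 ± 0.27 (adjusted p = 0.0152). Near Tbcc, a tubulin folding cofactor gene, 3 of 10 R probes of chr17:46972160-46997919 fell and none of 9 F probes was called. The named R probe went from -2.28, -1.47 and -1.41 to -3.15, -3.52 and -3.78, by -1.76 ± 0.27 (adjusted p = 0.0153). The falls in chr6:31078802-31079644 (2 of 3 probes) and near Scaf8 in chr17:3198868-3394643 (2 of 10 probes) were -1.68 ± 0.29 and -1.67 ± 0.38, at adjusted p of 0.02 and 0.0394. Without control-primed replicate 3, 6 of the 8 falls were lost (adjusted p 0.0962 to 0.164), without control-primed replicate 2, 5 (0.0567 to 0.096), and without knockdown-primed replicate 3, 3 (0.0552 to 0.103). The region near Scaf8 was also lost without knockdown-primed replicate 1 (0.0624) or control-primed replicate 1 (0.0818), and chr3:51138643-51146693 without knockdown-primed replicate 2 (0.08). With no filter on dim probes 7 of the 8 were lost (0.0558 to 0.0891). Without the 2 CT-26 arrays of lowest and highest detection share 7 of the 8 were lost as well (0.0685 to 0.191). In a fit over all 12 arrays the falls in chr3:51138643-51146693 (0.0667) and near Scaf8 (0.0802) were lost, and the former also after quantile normalization (0.0582) and with a replicate block (0.0538).

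A small region 10816 bp from Dusp6, the ERK phosphatase gene, dropped below background. All 3 R probes of chr10:98718526-98719169 fell, the one named going from -3.92, -3.74 and -3.93 to -5.80, -5.89 and -6.51, at least 2.96-fold lower (fitted change -2.20 ± 0.21, adjusted p = 0.00419), while Dusp6 was at -0.24 (adjusted p = 0.299). In RAW264.7 cells the named probe was well above background on 1 of 6 arrays, and Dusp6 rose by 1.67 ± 0.21 (adjusted p = 0.00168). All 3 F probes of chr13:97700327-97700876, 15410 bp from the glycosyltransferase gene Gcnt4, fell too, the one named from -4.06, -4.01 and -3.66 to -5.70, -5.76 and -6.93, at least 2.81-fold lower (adjusted p = 0.0137). In chr1:63163019-63164281, 1 of 3 F probes went from -3.81, -3.85 and -2.78 to -6.12, -4.96 and -5.08, at least 3.59-fold lower (adjusted p = 0.0269). With normexp correction these 3 changes shrank to -0.87, -0.77 and -0.71, below their bounds, and the last lost its call (0.0767). Without control-primed replicate 3 all 3 were lost, at adjusted p of 0.051 to 0.119, and chr1:63163019-63164281 also without control-primed replicate 2 (0.0624) or knockdown-primed replicate 3 (0.0731). All 3 were lost with no filter on dim probes (0.0557 to 0.0891), and the one near Dusp6 in a fit over all 12 arrays (0.0812). Without the 2 CT-26 arrays of lowest and highest detection share chr1:63163019-63164281 was lost (0.131).

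The spread of changes within a region strand is set here beside that of region probes at large. The median SD of changes within a region strand with 3 or more tested probes was 0.33 in RAW264.7 cells, against an SD of 0.65 over all tested region probes, and in CT-26 cells it was 0.3 against 0.54. A median of SDs over few probes and 1 SD over all probes are unlike measures, so how much closer probes of 1 region lie was not tested. By the like measure, named genes with 3 or more probes had a median SD of 0.344 in RAW264.7 and 0.282 in CT-26 cells. Of 1522 such region strands, most probes rose in 59 (3.88%) and most fell in 114 (7.49%), and every probe rose in 18 and fell in 23. Named genes with 3 or more probes gave 6.90% and 6.39% of 971. In CT-26 cells, of 1735 region strands most probes rose in 15 and most fell in 67 (0.865% and 3.86%), against 0.602% and 0.702% of 997 named genes. Region strands and named genes were not matched for signal in these shares. Kept region probes were dimmer, with a median level of -3.69 against -1.07 for kept probes of named genes. Calls in both directions on 1 region strand were few, 25 in RAW264.7 and 2 in CT-26 cells.

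**Figure D5:**
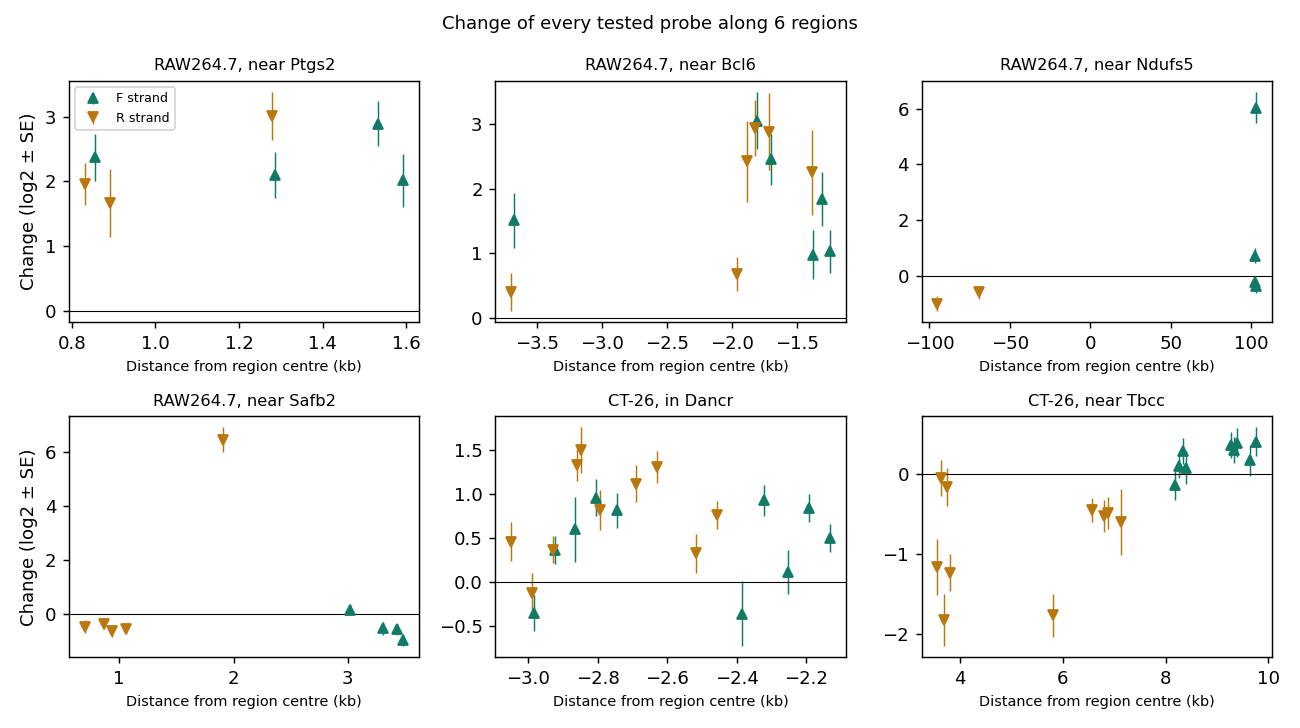
Change of every tested probe (y axis, log2 ± SE) along 6 regions, by distance from the region's centre (x axis, kb), with upward triangles for the F and downward triangles for the R strand. Near Ptgs2 the F probes lie at 2.02 to 2.89, near Ndufs5 1 F probe stands at 6.04 and the others lie at 0.73 or below, and near Safb2 a single R probe stands at 6.48 over neighbours between -0.95 and 0.17.

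The strands of a region changed in parallel to some extent. Over 913 regions with tested probes on both strands the median changes of F and R correlated at r = 0.506 (Spearman's rho 0.378) in RAW264.7 cells, and over 921 regions at r = 0.407 (0.389) in CT-26 cells. With 3 or more probes on each strand r was 0.666 over 347 and 0.578 over 403 regions. These points share arrays, scaling and base composition, and whether the labelling kept the strand is not given. The levels of the strands did differ: among 449 regions with 3 or more kept probes per strand the median absolute difference was 0.93, and 85 were over 2 log2 units apart.

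Region strands followed the nearest gene probe most closely where it lay inside the region. The correlation of a region strand's median change with that of the nearest named gene in RAW264.7 cells was 0.374 over 592 region strands with a named probe inside, 0.193 over 895 within 10 kb, 0.097 over 1405 at 10 to 100 kb and 0.0028 over 283 farther away. In CT-26 cells it was 0.3, 0.073, 0.0724 and 0.0314 in the same order, over 622, 928, 1417 and 280. Several region strands share 1 gene, and probes of a pair share arrays and scaling, so these are descriptions only. The pairs near Ptgs2, Snhg18 and Mir100hg moved the same way, and the pair near Bcl6 moved in opposite ways. Within chr10:66349796-66378261 the named R probe moved against the gene, while F probes of the region went both ways.

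Between the lines the regions differed more than between the groups of either line. Control RAW264.7 and control-primed CT-26 cells were compared over 10447 region probes, of which 3222 (30.8%) were higher in RAW264.7 and 3415 (32.7%) higher in CT-26, beside a background of 38.1% and 28.5% over 38380 probes. At 2-fold or more the numbers were 1706 and 2914. The share higher in CT-26 was 51.5% of calls, 43.0% with median centring, 75.9% with the percentile over probes detected on all arrays, 38.4% with normexp correction and 29% with only probes above background on every array. Each line lay on slides of its own, so line and slide cannot be told apart. Both groups also serve as the controls of the comparisons above, and the values are set side by side for that reason.

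Near Tyro3, a receptor kinase gene of macrophages and other cells, the region chr2:119697845-119719245 was a RAW264.7 transcript. Its F probe at 119703894 read 4.18, 4.58 and 4.39 in control RAW264.7 cells and -8.67, -7.86 and -8.45, not well above background, in control-primed CT-26 cells, at least 2140-fold higher in RAW264.7 (adjusted p = 7.64e-08). All 4 probes were higher there, by 8.65 to 12.71, and the knockdown left this one at 4.35, 4.27 and 4.15 (-0.13, adjusted p = 0.625). Tyro3, 54027 bp away, was lower in RAW264.7 than in CT-26 cells, by -4.12.

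Also high in RAW264.7 were chr11:49932129-49938154 near the ubiquitin ligase gene Rnf130 (at least 53.9-fold, Rnf130 9.30 higher) and chr1:135956616-135957485 (at least 35.8-fold). Among probes measured in both lines the next largest differences were 4.61 in chr1:94077221-94091396, 4.26 in chr6:149221500-149237350, 4.11 in chr15:83181291-83197750, which holds 1700001L05Rik (4.04 higher), and 4.04 in chr12:88221395-88221559 near Irf2bpl. All adjusted p here were 0.000819 or less.

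Other regions were high in CT-26 cells. In chr7:89433125-89464275, which holds a probe of Sh3gl3, an endophilin gene, an R probe was at least 281-fold higher in CT-26. All 4 probes were higher there, as was Sh3gl3 (-8.73). In chr14:105988692-105994145 an F probe was at least 149-fold higher. Among probes measured in both lines the largest differences toward CT-26 were -6.33 for another probe within Sh3gl3, -6.27 in chr9:58301467-58323783, -6.14 in chr9:56391562-56392142, -5.48 in chr8:19792940-19798868 and -5.44 in chr14:43418592-43428090. With normexp correction the fitted differences of all 5 probes given a bound were smaller than those bounds on the log2 scale. They were 9.9 near Tyro3, 4.33 near Rnf130, 4.22 in chr1:135956616-135957485, -6.96 within Sh3gl3 and -6.52 in chr14:105988692-105994145.

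The change on knockdown was tested for a difference between the lines with an interaction term over all 12 arrays. Of 11153 region probes, 600 (5.38%) had an upward difference, with the RAW264.7 change above the CT-26 change, and 2216 (19.9%) a downward one. The background was 7.33% and 20% over 40764 probes. A downward difference can hold a fall in RAW264.7 cells, a rise in CT-26 cells or both. The downward share of calls was 78.7%, 66.4% with median centring, 62.6% after quantile normalization, 48.6% with the percentile over probes detected on all arrays, 93.7% with normexp correction, 88.9% with only probes above background on every array and 51.2% in the fit blocked on slide.

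The probe near Zfp982, a zinc finger gene, changed in opposite directions in the lines. In chr4:146889506-146890173, a region of 18.3% GC at this probe, it read -6.55, -6.58 and -8.30 in control RAW264.7 cells, above background on none, and -5.30, -4.45 and -4.68 in the knockdown, at least 1.47-fold higher (fitted change 2.34 ± 0.46, adjusted p = 0.0125). In CT-26 cells it read -3.37, -3.04 and -3.11 on control-primed arrays and -4.17, -6.45 and -5.22 on knockdown-primed ones, a change of -2.11 ± 0.47 (adjusted p = 0.039), above background on 1 of the latter 3. The difference was 4.44 ± 0.78 (adjusted p = 0.00332), and 1.67 at the lowest over the alternatives, under which its call held. Zfp982 rose in RAW264.7 cells by 1.79 (adjusted p = 0.00886).

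A second probe of the region near Bcl6, at 23994728, differed as strongly. It read -6.22, -6.89 and -6.10, then -4.35, -3.21 and -2.5 in RAW264.7 cells, and -4.54, -4.64 and -4.16, then -5.17, -5.38 and -6.97 in CT-26 cells. The changes were 3.05 (adjusted p = 0.00292) and -1.39 (adjusted p = 0.0789), and their difference was 4.44 ± 0.71 (adjusted p = 0.00202). With normexp correction it was 1.65, and the call held. Near 2610027F03Rik the difference ran the other way, -3.39 ± 0.31 (adjusted p = 5.22e-05), with the smallest spread over the alternatives of the 9 probes named in this comparison, -3.56 to -3.14.

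Named long noncoding RNA genes and the nuclear exosome give the surroundings of these regions. Both lists, like the marker lists, were made with earlier results of these data known. Of 65 noncoding RNA genes listed, 49 were on the array and 37 were tested in RAW264.7 cells, where 2 rose and 6 fell, with a median of -0.38 against -0.29 over all probes, of which 7.89% were called higher and 13.0% lower. Mir22hg (1.31, adjusted p = 0.0105) and Malat1, an abundant nuclear RNA (1.02, 0.0106), rose, and Snhg18 (-1.97) and Crnde (-0.99, 0.0105) were the falls with the smallest p. In CT-26 cells 1 of 38 rose, Mirt1 by 0.82 (adjusted p = 0.0258), and 1 fell, Tug1 by -0.84 (adjusted p = 0.0407), with a median of 0.07 against 0.08 over all probes, of which 2.64% were called higher and 3.70% lower.

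Of 23 tested genes of the nuclear exosome and its adaptors, which degrade unstable nuclear transcripts, none rose and 4 fell in RAW264.7 cells. They were Zfc3h1 (-0.93, adjusted p = 0.01), Exosc7 (-0.71, 0.03), Exosc1 (-0.62, 0.0414) and Exosc3 (-0.62, 0.0491), and the list's median was -0.32 against -0.29 over all probes, of which 13.0% were called lower. In CT-26 cells 4 rose and none fell. These were Exosc6 (0.99, adjusted p = 0.0165), Exosc7 (0.77, 0.0308), Exosc5 (0.86, 0.0309) and Exosc1 (0.73, 0.0378), with a median of 0.26 against 0.08 over all probes, of which 2.64% were called higher.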

How the data were processed

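Total RNA of 12 samples was labelled with Cy3 after linear amplification and read on 1-colour Agilent mouse arrays, with Agilent Feature Extraction 10.7.3.1 per the submitters' processing notes. The deposited scanner files hold linear intensity per spot with probe sequence and mm9 position, per the file headers. The processed signal was background-corrected by the scanner software, per the file headers. The flag for a spot well above background in the deposited files is a 0 or 1, treated as another kind of value. The authors also deposited a processed table, used only as an alternative. Set against the scanner files, the RAW264.7 columns that the authors deposited in it were log2 values with medians of -3.808, -3.525, -3.898, -4.012, -3.935 and -3.925. The deposited CT-26 columns were intensity values on a linear scale with medians of 274.332, 277.262, 275.865, 227.377, 132.35 and 174.786, and 5 of these matched another replicate of their group best. How the authors scaled and centred that table before deposit is not given in the sources used here.

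Here, control spots (3671) and outlier spots were left out, spots of a probe were averaged, and log2 of the processed signal was taken relative to each array's 75th percentile. Groups came from the labels. A probe was tested where every array of at least 1 of the groups compared had it above background. Tests were two-sided and used lmFit and eBayes of limma 3.58.1 under R 4.3.3, over 6 arrays per comparison and 12 for the difference between lines, with p-values adjusted by Benjamini-Hochberg over all tested probes at a threshold of 0.05. The script was checked on simulated data. The number of arrays limits the precision.

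Gene names came from accessions for 26856 probes and from symbols for 4381, through RefSeq tables of GRCm38.p6 used for names only, and 8263 others had no name. Probe sequences are those of the scanner files.

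The members and lists were chosen with earlier results of these data known. Members named are, per line, the 8 largest rises and falls past the threshold, above background on all 6 arrays with groups that do not overlap, 1 probe per region, and up to 3 per direction above background in 1 group only. Also named are 5 per direction for the difference between lines, 5 plus up to 3 per direction between control lines, the 5 brightest, up to 3 regions whose probes lay furthest apart, the nearest named gene within 100 kb, and up to 4 list genes of smallest p. A few members that the rule names are not reported here. Alternatives were other scalings and background correction (normexp, offset 50), filters, a fit over all arrays, 1 probe per name, slide and replicate blocks, the deposited table and each array left out. The random slide block, the slide block for the difference, leaving out 2 CT-26 arrays together and leaving out probes that share 20 bases were chosen after seeing the data.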

Additional observations from a re-analysis of the deposited data

Results flagged for a closer look

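For 9 of the region probes named by the rule, the difference between the changes on knockdown in RAW264.7 and CT-26 cells passed the threshold. The difference itself was tested (the interaction term in limma over all 12 arrays, Benjamini-Hochberg adjusted). Values are the change in RAW264.7 minus the change in CT-26 on the log2 scale. The upward differences were 6.28 near Safb2 in chr17:56687541-56694631 (adjusted p = 0.000114), 4.86 near Ndufs5 in chr4:123155515-123361565 (0.00172), 4.44 near Bcl6 in chr16:23992037-24001037 (0.00202), 4.44 near Zfp982 in chr4:146889506-146890173 (0.00332) and 3.83 in chr1:44915250-44944125 (0.0246). Of these the probes near Safb2 and Ndufs5 were above background on no control RAW264.7 array and on no CT-26 array. They were tested only through the knockdown RAW264.7 group where they were high. Their differences and adjusted p are given as description, and their size is a fitted value and no bound.

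The downward differences were -4.23 in chr9:75316023-75344401, which holds Gm7972 (adjusted p = 0.0115), -3.76 in chrX:50087925-50101700, which holds Kis2 (0.0311), -3.39 near 2610027F03Rik in chr1:122655019-122660142 (5.22e-05) and -3.36 in chr17:84397891-84412748 (0.0193). The chromosome X probe read -3.26, -3.51 and -6.18 on control and -7.14, -5.13 and -7.36 on knockdown RAW264.7 arrays, so the groups overlapped there (change -2.23, adjusted p = 0.0773). In chr1:44915250-44944125 all 5 F probes rose in RAW264.7 cells, by 0.77 to 2.2, and the knockdown-primed CT-26 arrays read -1.77, -4.67 and -5.37. The chromosome 17 probe at 84412514 was above background on 1 control and no knockdown RAW264.7 array, so its difference is given as description too.

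In the fit blocked on slide 4 of these 9 no longer passed the threshold: chr1:44915250-44944125 (2.57, adjusted p = 0.183), chr9:75316023-75344401 (-3, 0.0982), chrX:50087925-50101700 (-1.9, 0.252) and chr17:84397891-84412748 (-1.67, 0.144). Leaving out 1 array also ended the call in chr1:44915250-44944125 without control RAW264.7 replicate 2 (0.0559), knockdown RAW264.7 replicate 2 (0.0524), control-primed replicate 3 (0.0557) or knockdown-primed replicates 2 (0.0548) or 3 (0.057). The chromosome X call ended with the percentile over probes detected on all arrays (-3.51, 0.0599) and without control RAW264.7 replicates 1 (0.0602) or 2 (0.0699), knockdown RAW264.7 replicates 1 (0.0664) or 3 (0.0746), control-primed replicates 2 (0.0681) or 3 (0.0758) or knockdown-primed replicate 1 (0.0598). The chromosome 17 call at 84412514 ended without control-primed replicate 3 (0.0534). Groups of 3 arrays were too small to look for single outlying arrays.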

How the results depend on the processing

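Counts of region probes called (limma) changed by over 1.5 times under these settings. For RAW264.7 cells the 1903 calls became 1170 with median centring, 1043 with the percentile over probes detected on all 12 arrays, 493 with no filter on dim probes, 872 with the brightest probe per name, 3289 in a fit over all 12 arrays, 208 in a fit blocked on slide and 252 on the slide holding both groups. For CT-26 cells the 769 calls became 7 with no filter, 211 with the brightest probe, 452 over all 12 arrays and 22 without the arrays of lowest and highest detection. For the lines, 6637 became 4413 with only probes above background on every array and 2450 with the brightest probe. For the difference, 2816 became 1427 with the detected percentile, 4876 with normexp, 1307 with the brightest probe and 639 in a fit blocked on slide. Fewer probes were tested with the brightest probe per name, and for the lines with only probes above background on every array (6767 against 10447). Otherwise the cause was not tested.

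Leaving out 1 array gave 374 (knockdown replicate 3) to 2798 (control replicate 3) calls in RAW264.7, 9 (control-primed replicate 3) to 970 (knockdown-primed replicate 1) in CT-26, 5367 to 6774 between lines and 1246 (control-primed replicate 3) to 3751 (control RAW264.7 replicate 3) for the difference. Same-numbered samples did not deviate together (correlations of -0.0989 to 0.00187 in RAW264.7 and -0.179 to 0.0116 in CT-26). This gives no sign of pairing but cannot exclude it. Control RAW264.7 arrays lay on different slides, and deposited CT-26 columns did not all match their own replicate number. A replicate block gave 1626, 473 and 1699 calls for RAW264.7, CT-26 and the difference. The 64 named results had 1090 alternatives, none of which turned a direction. The call was lost in 140, and 33 results kept it throughout, among them all 15 between lines. Signal over background limits the dim members: 1718 were kept through 1 group only.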

Other observations

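Values that belong to no comparison above concern what the probes share with other sequences. Of the 11153 kept region probes 1193 share a run of 20 bases with a probe of another name, 878 with another region and 396 with a named or other probe. The 5 brightest did so, and none changed past the threshold in either line. They lie in chrX:98979320-98997145 (mean levels by group of 6.29 to 6.88), chr2:152172745-152184745 near Trib3, chr13:98528250-98551125, chr2:143963320-143984245 and chr17:26679595-26688270, of which the last 2 share runs with probes named Rps2, a ribosomal protein gene, and Gm5921. Without the sharing probes 1694 region probes were called in RAW264.7 cells and 706 in CT-26 cells.

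RefSeq promoter windows of GRCm38.p6, from 250 bases before to 50 after a gene's start, held 133 kept probes whole, 63 on the gene's strand and 73 on the opposite one for 95 genes. Of these 130 were tested in RAW264.7 cells, where 3 (2.31%) rose and 28 (21.5%) fell. The shares were 7.89% and 13.0% over all probes, and 5.05% and 14.9% over all tested region probes. These differences were not tested. Chosen after their values were seen, the largest fall was at Zfp553, where all 3 probes fell (-1.70 to -0.79), the next was at Sin3a, a chromatin co-repressor gene (-1.55, adjusted p = 0.00512, limma), and the largest rise was at 4833407H14Rik (1.07, 0.0124). Of 14 kept probes that share 20 bases with a microRNA hairpin, the one at Mirlet7i in chr10:122410471-122422759 fell in RAW264.7 cells by -1.49 (adjusted p = 0.0061) and stood at 0.53 (0.0865) in CT-26 cells, and no other was called in either line. Among region strands with 3 or more tested probes of which most were called, the 5 largest medians per direction and line included others that hold a named gene, which did not always move with them. These were chosen after their values were seen. In RAW264.7 cells all 3 R probes of chr10:39666719-39679959 rose with a median of 3.14, as did Mfsd4b3-ps inside it (3.07, adjusted p = 8.62e-05), and all 4 R probes of chr4:146156575-146175425 rose with a median of 2.51 while Zfp600 inside it stood at -0.26 (0.575). All 3 R probes of chr19:46422690-46423478 fell with a median of -1.75, as did 2310034G01Rik inside it (-1.88, 0.000915). In CT-26 cells 4 of 5 F probes of chr7:91558475-91733625 rose with a median of 1.08, as did Gm2115 inside it (1.37, 0.0114), and 4 of 5 R probes of chr5:26323150-26357875 rose with a median of 0.99 while Gm5067 inside it stood at -0.41 (0.552).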
